A study of Mus musculus with 9 samples.

Results

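The tumours of the Nestin-creERT2 mouse model of glioblastoma were set against those of 2 other models taken as 1 group, to ask in which genes every Nestin-creERT2 tumour stood apart. Bulk RNA sequencing gave 9 libraries, 3 from Nestin-creERT2, 3 from Synapsin-cre and 3 from NG2-creERTM, so that 3 libraries were compared with 6. Genes were chosen where all 3 Nestin-creERT2 libraries lay above, or all 3 lay below, all 6 others in CPM, the count of a gene per 1e6 counts of its library after TMM normalisation. Of 17947 genes tested, 432 lay above (2.41%) and 448 lay below (2.5%), which makes 880 genes described here. That separation is what chose them and is given as a description, without a test.

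Every library came from primary glioblastoma tissue of mice on a mixed strain background. The series set out to represent different cells of origin, and each model is named for the Cre recombinase line used. The Nestin promoter is active in neural stem and progenitor cells, the synapsin promoter in neurons, and the NG2 promoter in oligodendrocyte precursors and pericytes, and tamoxifen switches on the Cre forms ERT2 and ERTM. The tumour suppressor alleles, the ages and any tamoxifen schedule are not given in the sources used here, nor is it stated that the 3 samples of a model are separate animals. The p-values therefore measure only the spread between these samples. In bulk tissue fewer cells of a type and less RNA per cell cannot be told apart.

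Neural stem cells and astrocytes share many genes, among them the transcription factor gene Sox9 and the receptor gene Egfr. The EGF receptor belongs to a family of receptor kinases with Erbb2, Erbb3 and Erbb4, which bind their ligands as pairs. Erbb3 pairs with Erbb2 to carry neuregulin signals in cells of the neural crest lineage, which gives rise to Schwann cells and pigment cells and depends early on the transcription factor Foxd3.

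Depth ranged from 23557398 to 41099967 counts in genes per library. Synapsin-cre replicate 1 stood apart, with Spearman correlations across genes of 0.778 to 0.825 with the other Synapsin-cre and NG2-creERTM libraries, against 0.918 to 0.946 among those 5. Its correlations with the 3 Nestin-creERT2 libraries were higher than with its own group, at 0.857 to 0.884. Those 5 correlated with Nestin-creERT2 at 0.8905 to 0.923. The Nestin-creERT2 libraries correlated at 0.948 to 0.957 with each other. Choroid plexus genes summed to 6080 CPM in Nestin-creERT2 replicate 1, where the transthyretin gene Ttr was at 5695 CPM, to 414 CPM in Synapsin-cre replicate 1 and to 7.32 to 71.5 CPM in the other 7. Sex-linked genes moved with the comparison: Xist, which silences an X chromosome, lay at 778 to 1810 CPM in Nestin-creERT2 and at 1320 CPM in NG2-creERTM replicate 2, with 0.989 to 1.28 CPM in the remaining 5. The Y chromosome gene Uty lay below, at 0 to 1 counts in Nestin-creERT2 against 3 counts in NG2-creERTM replicate 2. It was at 0.839 CPM in NG2-creERTM replicate 1, which was low in Xist too, at 37.4 CPM in replicate 3 and at 26.9 to 29.1 CPM in Synapsin-cre. The part of the choroid plexus and sex-linked genes in the results was not tested.

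With all 9 libraries in the fit, the quasi-likelihood test of edgeR called, after Benjamini-Hochberg adjustment, 5 genes higher in Nestin-creERT2 (0.0279% of those tested) and 1 lower (0.00557%). The 5 were Draxin, Agt, Elfn1, the gene 9230104L09Rik and the pseudogene Gm11868, and the 1 was Foxd3. All 6 are among the 880, and the test used the contrast that chose the 880, so nothing further is read from that. At an unadjusted p under 0.05 the test had 696 genes higher and 957 lower, and limma voom called 19 and 2. With autosomal genes only, 406 lay above and 437 below, and all 6 calls were kept. The gaps were mostly narrow. The nearest Nestin-creERT2 library lay at least 2-fold beyond the nearest other library in 59 of the 432 genes above and in 59 of the 448 below, and the median gap was 1.17-fold in both directions. Just inside the rule stood Men1, at 69.4063 CPM in the lowest Nestin-creERT2 library against 69.3996 CPM in the highest other, and just outside it Itga6 (78.972 against 78.9885 CPM). In the other direction Skiv2l was just inside (84.356 CPM in the highest Nestin-creERT2 library against 84.3578 CPM in the lowest other) and G6pc3 just outside (40.2603 against 40.2263 CPM).

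Draxin and Egfr lay above and Foxd3 below, and the 250 bases before their transcription starts are shown as examples of promoters from both directions, chosen after their values were seen. They are RefSeq sequence on GRCm38.p6, written 5′ to 3′ on the strand of the gene, at chr4:148130699-148130948, minus strand for Draxin, chr11:16751953-16752202, plus strand for Egfr and chr4:99656049-99656298, plus strand for Foxd3. Capitals mark matches to the NFI motif (TTGGC), the SOX motif (ACAAAG), the AP-1 motif (TGANTCA) and the RBPJ motif (TGGGAA) on either strand.
Draxin: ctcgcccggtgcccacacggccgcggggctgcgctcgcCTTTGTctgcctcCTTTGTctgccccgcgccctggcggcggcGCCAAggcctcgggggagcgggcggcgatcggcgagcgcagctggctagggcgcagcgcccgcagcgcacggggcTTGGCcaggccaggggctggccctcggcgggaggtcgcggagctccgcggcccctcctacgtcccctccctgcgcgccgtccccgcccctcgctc
Egfr: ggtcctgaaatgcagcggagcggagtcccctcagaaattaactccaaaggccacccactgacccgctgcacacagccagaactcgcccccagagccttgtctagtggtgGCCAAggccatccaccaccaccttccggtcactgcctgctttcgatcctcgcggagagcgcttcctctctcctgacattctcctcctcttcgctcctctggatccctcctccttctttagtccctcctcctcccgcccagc
Foxd3: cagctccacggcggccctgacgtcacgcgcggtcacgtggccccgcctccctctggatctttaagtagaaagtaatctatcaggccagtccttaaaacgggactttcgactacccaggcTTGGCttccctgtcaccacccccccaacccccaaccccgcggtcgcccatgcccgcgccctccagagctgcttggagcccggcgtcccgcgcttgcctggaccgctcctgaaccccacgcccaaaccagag
Draxin held 2 NFI and 2 SOX matches, and Egfr and Foxd3 held 1 NFI match each. None of the 3 windows held an AP-1 or RBPJ match. The GC content was 79.6% for Draxin, 60.8% for Egfr and 65.6% for Foxd3. Such matches are common: in windows of 300 bases around the start, 50.3% of 328 promoters of genes above held the NFI motif, as did 50% of 306 of genes below and 50.3% of all 12648 promoters of tested genes. The SOX motif stood in 14.02%, 12.4% and 13.9%, AP-1 in 5.49%, 5.23% and 5.19%, RBPJ in 19.5%, 22.9% and 23.5%, and the E-box (CANNTG) in 65.2%, 66.7% and 64.5%, in the same order. The median GC content was 60.3% above, 61.5% below and 60.3% over all. A match is a run of letters and not a shown binding site.

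A few astrocyte genes lay above. Agt encodes angiotensinogen, which astrocytes make in the brain (chromosome 8, 124556534 to 124569706). It stood at 151, 337 and 484 CPM in Nestin-creERT2 replicates 1, 2 and 3, against 12.2, 27.7 and 13.1 CPM in Synapsin-cre and 30.8, 20.3 and 26.8 CPM in NG2-creERTM. The groups were 4.91-fold apart at their nearest libraries, and the 2 other models overlapped with each other. Agt rose by 3.89 on the log2 scale (SE 0.41, edgeR adjusted p = 0.0210). Sox9, a transcription factor gene of glia and neural stem cells (chromosome 11, 112782224 to 112787760), lay at 151, 150 and 111 CPM, against 44.0, 20.5 and 46.2 CPM in Synapsin-cre and 34.8, 35.4 and 18.2 CPM in NG2-creERTM. Its log2 fold change was 2.05 ± 0.32 (SE), short of the threshold with all 9 libraries (edgeR adjusted p = 0.0844) and past it without Synapsin-cre replicate 1 (2.15, adjusted p = 0.0145). Acsbg1, an acyl-CoA synthetase of astrocytes, was at 343 to 373 CPM against 32.6 to 286 CPM, the upper value being Synapsin-cre replicate 1.

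Of the 20 astrocyte genes listed, all measured, 3 lay above and 0 below, 18 had positive fold changes, and the median log2 fold change was 0.83. Over all genes tested 2.41% lay above and 2.5% below, the median was -0.13 and 40.8% were positive. Synapsin-cre replicate 1 held the highest summed level of this list, 12810 CPM, against 6851 to 9179 CPM in Nestin-creERT2 and 1062 to 5716 CPM in the remaining 5. Without it 10 of the 20 lay above and 4 passed edgeR's adjusted test, while over all genes 9.15% lay above in that setting and 2.87% were called higher. Slc1a2, the main astrocytic glutamate transporter, was among those that overlapped with all 9 libraries, at 792, 865 and 1214 CPM in Nestin-creERT2, at 1626 CPM in Synapsin-cre replicate 1 and at 9.71 to 146 CPM in the remaining 5. Its log2 fold change was 1.48 with all 9 libraries (edgeR adjusted p = 0.743) and 3.46 without that replicate (adjusted p = 0.0231). Of the 18 radial glia and neural stem cell genes 2 lay above and 0 below. Fabp7, the lipid-binding protein of radial glia, was at 475, 875 and 544 CPM against 90.3 to 461 CPM, and Lhx2, a patterning factor of the forebrain, at 30.9 to 45.6 CPM against 8.44 to 25.1 CPM. Nes and Sox2, also on that list, overlapped, with Nes at 348 to 492 CPM in Nestin-creERT2 and 55.3 to 688 CPM in the other 6.

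**Figure D1:**
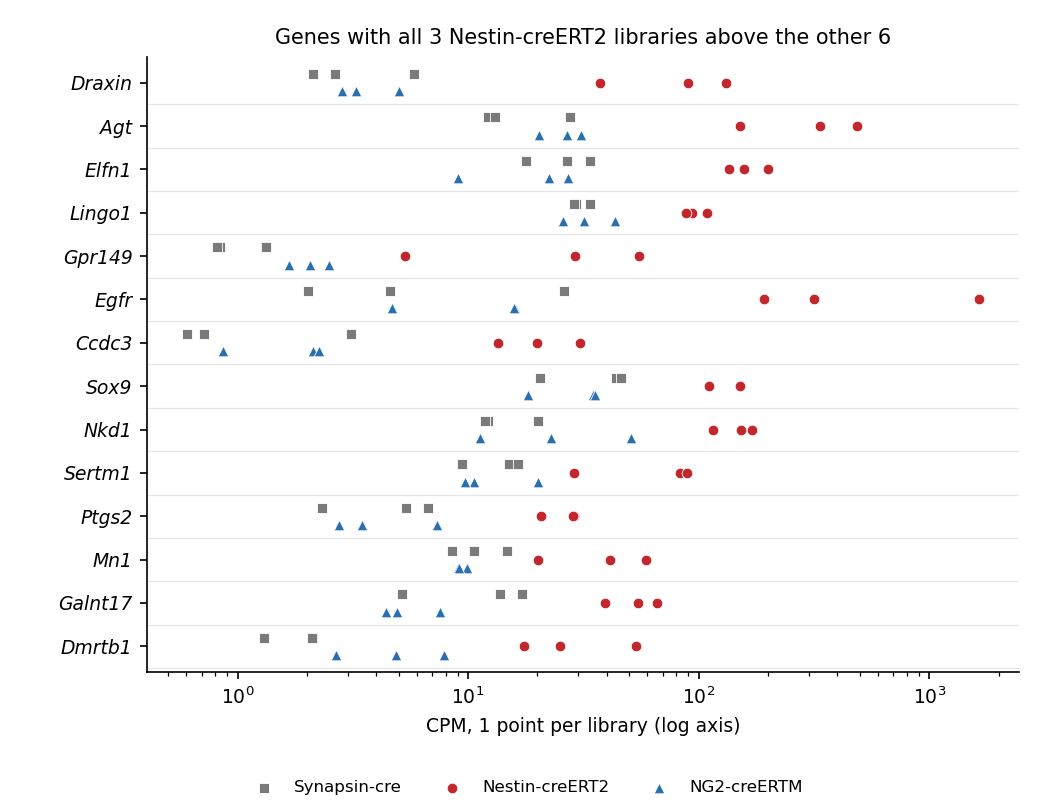
CPM of the 14 genes above with the smallest p in the pooled edgeR test, on a log axis, with 1 point per library and colour and shape giving the model. Within each row every Nestin-creERT2 point lies to the right of the other 6, from a 1.37-fold gap for Mn1 to a 7.42-fold gap for Egfr, and levels are to be compared within a row only.

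Members of the EGF receptor family stood on opposite sides. Egfr (chromosome 11, 16752203 to 16918158) was at 316, 193 and 1643 CPM in Nestin-creERT2, against 25.98, 2.01 and 4.57 CPM in Synapsin-cre and 15.9, 15.8 and 4.69 CPM in NG2-creERTM. Nestin-creERT2 replicate 3 was the highest, and the lowest Nestin-creERT2 library was 7.42-fold above the highest other. The log2 fold change was 5.97 ± 0.90 (SE), with an edgeR adjusted p of 0.0835 in all 9 libraries and 0.0127 without Synapsin-cre replicate 1. Without Nestin-creERT2 replicate 3 the log2 fold change of Egfr was 4.48 (edgeR adjusted p = 0.195). Erbb3 (chromosome 10, 128567523 to 128589652), the neuregulin receptor with an impaired kinase, was at 2.85, 2.08 and 8.08 CPM in Nestin-creERT2, against 79.0, 570 and 302 CPM in Synapsin-cre and 446, 143 and 874 CPM in NG2-creERTM. Its groups were 9.78-fold apart (log2 fold change -6.53 ± 1.01 SE, edgeR adjusted p = 0.0844, and 0.0101 without Synapsin-cre replicate 1). Erbb2, its partner without a known ligand of its own, was at 4.97, 3.66 and 4.31 CPM, against 12.1 to 33.6 CPM in Synapsin-cre and 20.2 to 36.4 CPM in NG2-creERTM (log2 fold change -2.47 ± 0.45 SE, edgeR adjusted p = 0.127). Erbb4, the remaining receptor, overlapped, at 29.9 to 157 CPM against 13.9 to 148 CPM.

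Per kilobase of exon, Egfr stood at 17.03 to 145 CPM in Nestin-creERT2 and at 0.178 to 2.29 CPM in the other 6, and Erbb3 at 0.345 to 1.34 and at 13.1 to 145 CPM, so that the receptor with the higher level of these 2 was Egfr in the first group and Erbb3 in the second. Lrig1, a membrane protein that promotes the breakdown of EGF receptors, lay above as well, at 356, 254 and 341 CPM against 51.1 to 245 CPM. The nearest other library, NG2-creERTM replicate 2, was only 1.04-fold lower. Among the 16 measured members of the list of receptors, ligands and regulators, 2 lay above, 2 below and 12 overlapped, with 7 positive fold changes and a median of -0.30. The shares over all genes tested were 2.41% above and 2.5% below. None of the ligand genes separated. Tgfa, which encodes TGF-alpha, was at 23.5 to 261 CPM against 52.8 to 419 CPM, and Hbegf at 23.6 to 168 CPM against 27.5 to 239 CPM. Of the 16 genes that respond to ERK signalling downstream of such receptors, 1 lay above, 0 below and 10 had negative fold changes. That 1 was Spred1, an inhibitor of the pathway, at 199 to 274 CPM against 108 to 181 CPM. Spry2 was at 69.1 to 165 CPM against 38.2 to 154 CPM and Dusp6 at 94.8 to 154 CPM against 42.2 to 240 CPM.

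**Figure D2:**
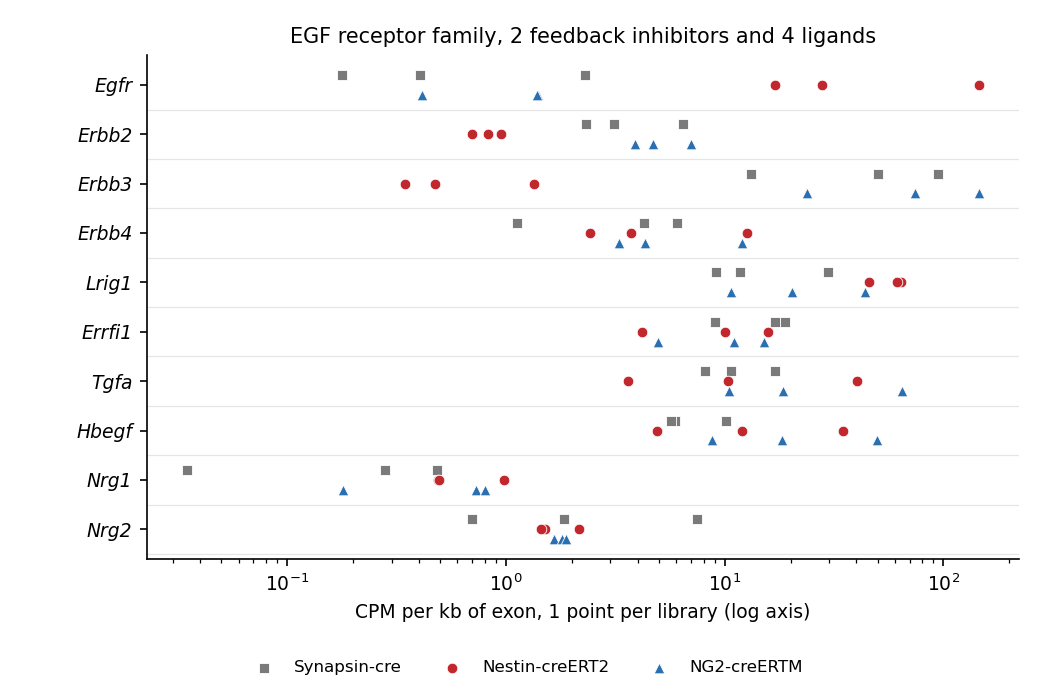
CPM per kilobase of exon for the 4 receptors of the EGF receptor family, 2 inhibitors and 4 ligands, on a log axis with 1 point per library. Nestin-creERT2 lies right of the other 6 libraries in Egfr and Lrig1, left of them in Erbb2 and Erbb3, and among them in the other 6 genes.

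Some inhibitors of Wnt and BMP signalling lay above. Draxin, a secreted axon guidance protein that also antagonises Wnt signalling (chromosome 4, 148098437 to 148130698), was at 37.4, 90.2 and 132 CPM in Nestin-creERT2, against 2.12, 5.85 and 2.65 CPM in Synapsin-cre and 2.85, 4.996 and 3.25 CPM in NG2-creERTM. The 6 others lay within a narrow range and the groups were 6.40-fold apart. Draxin rose by 4.58 on the log2 scale (SE 0.45, edgeR adjusted p = 0.0207). Nkd1, an intracellular Wnt antagonist that is itself a Wnt target, was at 115, 171 and 153 CPM, against 11.2 to 50.7 CPM (log2 fold change 2.77 ± 0.47 SE, edgeR adjusted p = 0.114, and 0.0200 without Synapsin-cre replicate 1). The list of 17 measured Wnt and BMP inhibitors holds Draxin but not Nkd1. On it 3 lay above and 0 below, beside 2.41% and 2.5% of all genes, and the median log2 fold change was 0.16. The other two were Wif1, which binds Wnt proteins (3.91 to 6.43 CPM against 0.541 to 3.14 CPM), and Bmper, which binds BMPs (12.7 to 25.4 CPM against 3.37 to 12.3 CPM). The list did not separate as a whole, with Frzb at 4.29 to 14.7 CPM against 7.49 to 77.2 CPM.

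Elfn1, Lingo1, Sertm1 and Gpr149 are on none of the lists and were among the 14 genes above with the smallest p. Elfn1, a synaptic adhesion protein that recruits glutamate receptors (chromosome 5, 139907943 to 139974722), was at 136, 158 and 200 CPM, against 33.7, 26.9 and 17.9 CPM in Synapsin-cre and 9.05, 22.3 and 27.0 CPM in NG2-creERTM. It rose by 2.85 on the log2 scale (SE 0.36, edgeR adjusted p = 0.0421). Lingo1, a receptor subunit that limits myelination and axon growth, varied little within Nestin-creERT2, at 108, 93.3 and 88.5 CPM against 25.9 to 43.3 CPM (log2 fold change 1.59 ± 0.23 SE, edgeR adjusted p = 0.0706). Sertm1, a transmembrane protein gene, was at 28.8 to 88.6 CPM against 9.38 to 20.1 CPM, and the orphan receptor gene Gpr149 at 5.35, 29.1 and 55.0 CPM against 0.812 to 2.48 CPM. Bdnf, the neurotrophin gene, lay at 12.1 to 39.0 CPM against 0.248 to 5.001 CPM (edgeR adjusted p = 0.216, and 0.0234 without Synapsin-cre replicate 1).

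The pan-neuronal list itself separated in few genes. Of 18 genes 2 lay above, Elavl4 (52.95 to 74.4 CPM against 5.38 to 50.1 CPM) and Gap43 (225 to 305 CPM against 48.0 to 220 CPM), which encode a neuronal RNA-binding protein and a growth cone protein. Its summed level was 2392 to 3016 CPM in Nestin-creERT2, 9733 CPM in Synapsin-cre replicate 1 and 796 to 1515 CPM in the remaining 5. Without that replicate 13 of the 18 lay above and 8 passed edgeR's adjusted test, beside 9.15% and 2.87% of all genes. Over all genes the share above had been 2.41% with all 9 libraries. Among 14 GABAergic genes the count above went from 0 to 8 and the median log2 fold change from -1.18 to 2.82, and among 14 glutamatergic genes the count went from 1 to 8. The sign of the GABAergic median thus rested on that library.

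Other genes above had varied roles. Ptgs2, the inducible cyclooxygenase gene, was at 28.8, 28.5 and 20.6 CPM against 2.32 to 7.34 CPM, and the secreted protein gene Ccdc3 at 13.4 to 30.6 CPM against 0.601 to 3.10 CPM. Mn1, a transcriptional coregulator gene, was at 20.2 to 59.1 CPM against 8.50 to 14.7 CPM. Galnt17, of a family of glycosyltransferases, was at 39.1 to 65.8 CPM against 4.41 to 17.1 CPM, and Dmrtb1, a DM domain transcription factor gene, at 17.4 to 53.7 CPM against 1.30 to 7.85 CPM. These 5 had edgeR adjusted p-values of 0.0844 to 0.127 with all 9 libraries and of 0.0126 to 0.0255 without Synapsin-cre replicate 1. Lfng, which modifies Notch receptors, lay above at 69.5 to 78.4 CPM against 9.56 to 52.3 CPM. It was the 1 of 18 Notch pathway genes to do so, beside 2.41% of all genes. C1qa, a complement gene of microglia, was at 213 to 228 CPM against 23.4 to 194 CPM, a 1.10-fold gap (edgeR adjusted p = 0.612). It was the 1 of 16 pan-myeloid genes above, and 0 of 12 homeostatic microglia genes lay above or below.

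The called genes outside the naming rule were looked at after their values were seen. 9230104L09Rik, a protein coding gene on chromosome 2 (148846711 to 148865038), held 184, 3215 and 3587 counts in Nestin-creERT2, which is 5.41, 89.1 and 85.5 CPM, against 0 to 19 counts in the other 6 libraries. It rose by 8.62 on the log2 scale (SE 1.11, edgeR adjusted p = 0.0421). The processed pseudogene Gm11868 (chromosome 4, 18844202 to 18845679) held 97 to 173 counts against 1 to 8, and rose by 4.85 (SE 0.62, edgeR adjusted p = 0.0421). Reads of a pseudogene can belong to its parent gene, so that value is uncertain. Fitted fold changes of genes near 0 counts depend on the prior count.

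Among the lists with members below, that of Schwann cell and neural crest genes had the largest share of them, 37.5%, beside 2.5% of all genes. Foxd3, the early neural crest transcription factor (chromosome 4, 99656299 to 99658622), was at 0.0588, 0.277 and 0.143 CPM in Nestin-creERT2, which is 2, 10 and 6 counts, against 38.1, 24.99 and 72.7 CPM in Synapsin-cre and 14.3, 18.1 and 57.1 CPM in NG2-creERTM, or 479 to 2418 counts. Both other models carried it in every library, and the groups were 51.8-fold apart at their nearest libraries. Foxd3 fell by 7.84 on the log2 scale (SE 0.89, edgeR adjusted p = 0.0255). Dhh, a hedgehog signal of Schwann cells, was at 0.194 to 1.76 CPM against 3.94 to 140 CPM, and Ngfr, a neurotrophin receptor of neural crest cells, at 1.596 to 5.29 CPM against 10.8 to 124 CPM. Mitf, the master regulator of pigment cells, was at 5.07 to 10.4 CPM against 14.8 to 28.8 CPM.

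Of the 16 measured members of the Schwann cell and neural crest list 6 lay below and 0 above, 15 had negative fold changes, and the median log2 fold change was -2.38. The summed level of the list was 295 to 921 CPM in Nestin-creERT2 against 1121 to 5728 CPM, without overlap. Sox10, a factor of both the oligodendrocyte and the Schwann lineage, was at 25.7, 72.2 and 380 CPM in Nestin-creERT2 against 145 to 1090 CPM and overlapped through replicate 3. Of 12 oligodendrocyte precursor genes 0 lay below or above, where 2.5% and 2.41% of all genes did. Among them Olig2 was at 250 to 810 CPM against 39.0 to 586 CPM and Pdgfra at 313 to 2024 CPM against 128 to 1810 CPM. Of 12 oligodendrocyte and myelin genes 0 lay below or above as well, and the median log2 fold change was -0.74. Yet their summed level was lower without overlap, at 651 to 1719 CPM in Nestin-creERT2 against 1820 to 6410 CPM. Lgi4, a secreted protein that Schwann cells need to myelinate, is on none of the lists and was at 16.0, 14.2 and 24.2 CPM against 62.5 to 362 CPM (log2 fold change -3.58 ± 0.68 SE, edgeR adjusted p = 0.145, and 0.0259 without Synapsin-cre replicate 1).

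**Figure D3:**
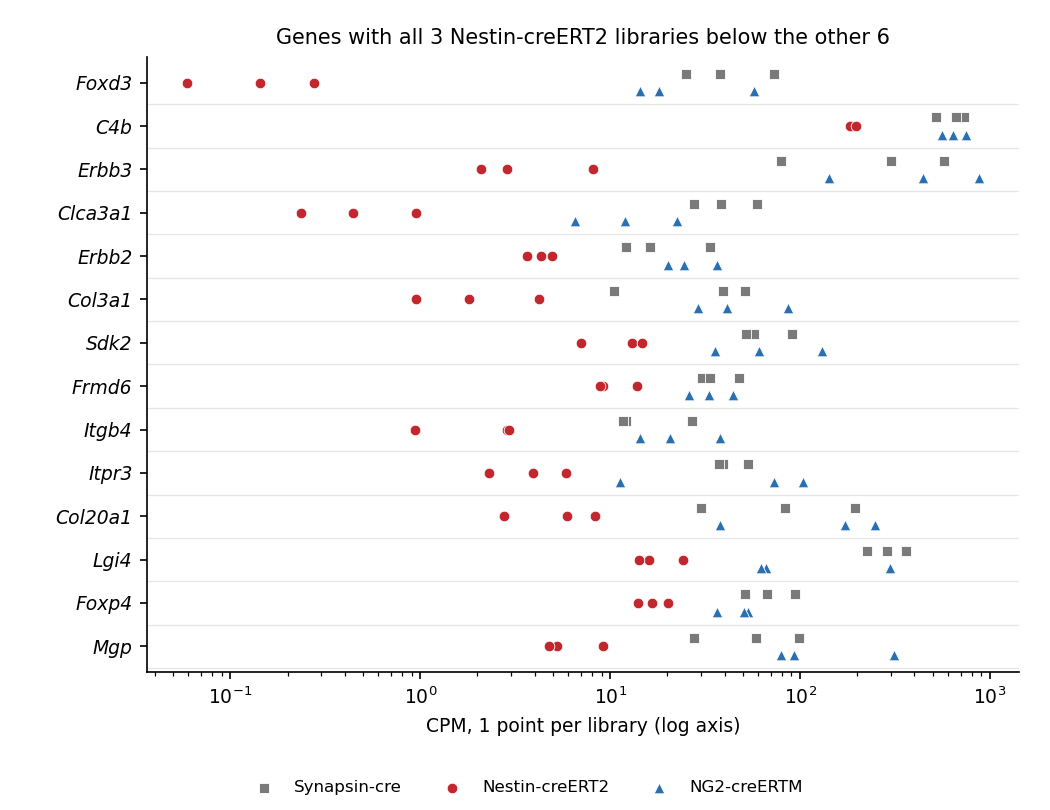
CPM of the 14 genes below with the smallest p in the pooled edgeR test, on a log axis, with 1 point per library and colour and shape giving the model. Every Nestin-creERT2 point lies to the left of the other 6 in its row, from a 1.81-fold gap for Foxp4 to a 51.8-fold gap for Foxd3.

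Of 15 fibroblast and meningeal genes 5 lay below and 0 above, beside 2.5% and 2.41% of all genes, and the median log2 fold change was -2.27. The summed level of the list overlapped, at 774 to 2259 CPM against 558 to 3672 CPM. Col3a1, a fibrillar collagen gene (chromosome 1, 45311538 to 45349706), was at 4.20, 1.80 and 0.953 CPM, against 10.4, 39.3 and 51.1 CPM in Synapsin-cre and 41.1, 29.0 and 86.1 CPM in NG2-creERTM. Synapsin-cre replicate 1 was the lowest of the 6, and the groups were 2.49-fold apart. The log2 fold change was -4.21 ± 0.77 (SE), with an edgeR adjusted p of 0.127 in all 9 libraries and 0.0126 without that replicate. Col1a1 was at 1.44 to 5.50 CPM against 18.7 to 480 CPM, the upper value being NG2-creERTM replicate 1. Postn, a matrix protein of fibroblasts, was at 3.83 to 19.4 CPM against 49.4 to 772 CPM, and Mgp, an inhibitor of calcification, at 4.76 to 9.14 CPM against 27.5 to 311 CPM. Col20a1, a collagen gene on none of the lists, was at 2.74 to 8.31 CPM against 30.0 to 248 CPM. Fbln1 (28.7 to 87.3 CPM against 13.99 to 106 CPM) and Igf2 (3.16 to 174 CPM against 3.96 to 81.7 CPM) were among the 10 listed genes that overlapped.

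Some genes of vessel walls and endothelium lay below as well, where 2.5% of all genes lay below and 2.41% above. Of 14 pericyte and smooth muscle genes 4 lay below and 0 above, with 12 negative fold changes and a median of -1.18. Mcam, an adhesion molecule of vessel walls, was at 15.9 to 38.7 CPM against 78.7 to 465 CPM. Pdgfrb, the PDGF receptor of pericytes, was at 17.01, 9.25 and 10.6 CPM against 20.5 to 41.2 CPM, Abcc9, a channel subunit of pericytes, at 4.04 to 10.4 CPM against 12.3 to 59.6 CPM, and Anpep, a peptidase, at 1.38 to 3.13 CPM against 4.69 to 9.47 CPM. Of 14 endothelial genes 4 lay below, 0 above and 13 had negative fold changes, with a median of -0.88. The 4 were Cdh5, the adherens junction cadherin of endothelium (7.09 to 19.1 CPM against 20.5 to 32.5 CPM), the receptor gene Tie1 (7.34 to 11.8 CPM against 14.6 to 37.2 CPM), the sialomucin gene Emcn (2.67 to 7.61 CPM against 7.72 to 23.4 CPM) and the transcription factor gene Erg (3.002 to 5.88 CPM against 6.48 to 36.02 CPM). In all 4 the gap was 1.24-fold or less and the edgeR adjusted p was 0.371 to 0.526, so none passed the test.

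The remaining genes below with the smallest p were not held together by a list. C4b, a complement gene, was at 188, 184 and 197 CPM against 519 to 751 CPM (log2 fold change -1.76 ± 0.27 SE, edgeR adjusted p = 0.0835, and 0.0132 without Synapsin-cre replicate 1). Its near-identical copy C4a was at 1.52 to 3.60 CPM in Nestin-creERT2, and how the counting shared reads between them is not known. Clca3a1 was at 0.235 to 0.953 CPM against 6.53 to 59.6 CPM. Its copy Clca3a2 lay below too, at 1 to 2 counts in each Nestin-creERT2 library against 29 to 1271 counts in the other libraries. How reads were shared between these copies is not known either, so the value of each is uncertain. Sdk2, an adhesion molecule gene of synapses, was at 7.01 to 14.7 CPM against 35.6 to 131 CPM, and Itgb4, the integrin beta 4 gene, at 0.942 to 2.93 CPM against 11.6 to 37.8 CPM. Itpr3, a calcium channel of the endoplasmic reticulum, was at 2.30 to 5.82 CPM against 11.2 to 103 CPM, the lower value being NG2-creERTM replicate 2. Foxp4, a forkhead transcription factor gene, was at 13.96 to 20.2 CPM against 36.5 to 94.3 CPM, and Frmd6, a FERM domain protein gene, at 8.79 to 13.8 CPM against 26.01 to 47.8 CPM.

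Of the 35 gene lists 20 had at least 1 separated member and 8 had 3 or more, where 2.41% of all genes lay above and 2.5% below. Hypoxia and glycolysis genes had 18 of 19 negative fold changes (median -1.21) and immediate-early genes 14 of 15 (median -0.94), yet 0 members of either lay below. Mesenchymal glioblastoma genes had 19 of 21 negative (median -0.63) and 0 below, and classical glioblastoma genes, which include Egfr, Sox9, Acsbg1 and Lfng, had 4 of 18 above and a median of 0.20. Proliferation genes had 0 of 18 above or below, with a median of -0.33. Choroid plexus genes had a median of 5.12 over 8 measured members, but only Prlr, the prolactin receptor gene, lay above in all 3 libraries (36.5, 0.416 and 0.881 CPM against 0 to 0.120 CPM), and replicate 1 held most of the summed level, 6080 CPM. No list was tested as a set.

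**Figure D4:**
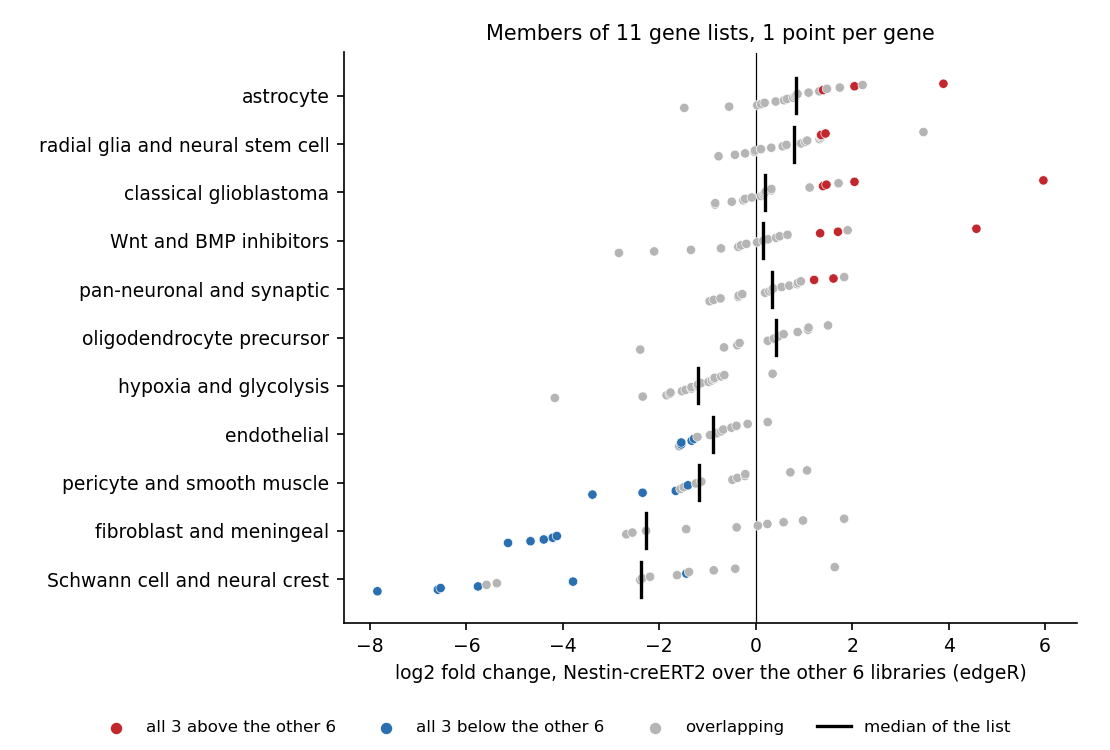
edgeR log2 fold changes of Nestin-creERT2 over the other 6 libraries for the members of 11 gene lists, with 1 point per gene, a bar at each median and colour for separation of the groups. Points below 0 in all but 1 gene mark the Schwann cell, endothelial and hypoxia lists, with 6 separated genes on the Schwann cell list, 4 on the endothelial list and 0 on the hypoxia list.

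Other genes named for the models or known from glioblastoma were looked up whatever their values, and those given here overlapped between the groups. Nf1, a brake on Ras signalling, was at 49.5, 53.8 and 58.9 CPM in Nestin-creERT2 against 45.8 to 185 CPM and Trp53, a tumour suppressor, at 50.2 to 107 CPM against 52.8 to 315 CPM. Cspg4, the NG2 gene, was at 114, 137 and 632 CPM against 49.1 to 958 CPM. Syn1, the synapsin gene, was at 135, 50.8 and 97.4 CPM against 602 CPM in Synapsin-cre replicate 1 and 11.8 to 34.4 CPM in the remaining 5, so that it lay above without that replicate (log2 fold change 1.91, edgeR adjusted p = 0.0347). The astrocyte filament gene Gfap was at 1392 to 3095 CPM against 94.1 to 4023 CPM.

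Genes above were unevenly spread over the chromosomes. Chromosome 2 held 97 of the 432 (22.5%) and 7.74% of the genes tested, so that 6.98% of its 1389 tested genes lay above and 0.432% below, whereas 2.02% of genes elsewhere lay above. This was noticed after the values were seen. The median log2 fold change of its genes above was 0.84, against 1.38 for those elsewhere, and 69.0% of all its tested genes had a positive fold change. Taken as the median log2 ratio of its protein coding genes to the median of all 9 libraries, chromosome 2 lay at 0.174 to 0.278 in Nestin-creERT2. The other 2 models differed from each other, with Synapsin-cre at 0 to 0.0592 and NG2-creERTM at -0.442 to -0.0506. The difference of 0.33 between Nestin-creERT2 and the other 6 pooled thus includes the low NG2-creERTM values. Chromosome 2 was the 1 chromosome of 20 on which the groups did not overlap in this median. Since the separated genes drew attention to it, the difference is given as a description. A permutation test over the 84 ways to choose 3 of the 9 libraries gave p = 0.0476 for it. After Benjamini-Hochberg adjustment over the 20 chromosomes that permutation p was 0.397, which did not pass. Cut into 8 stretches of equal length, it had Nestin-creERT2 above the other 6 in 7, and in the third stretch Nestin-creERT2 (0.144 to 0.200) overlapped with a highest other library of 0.296. The X chromosome held 38 genes above and 4 below, 5.98% and 0.629% of its 636 tested genes. Chromosome 15 held 8 and 43, 1.19% and 6.39% of 673, beside 2.41% and 2.5% of all genes. Xist was high in every Nestin-creERT2 library and, of the other 6, only in NG2-creERTM replicate 2, and the part of sex in the X counts was not tested. DNA copy number was not measured, and its part was not tested.

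**Figure D5:**
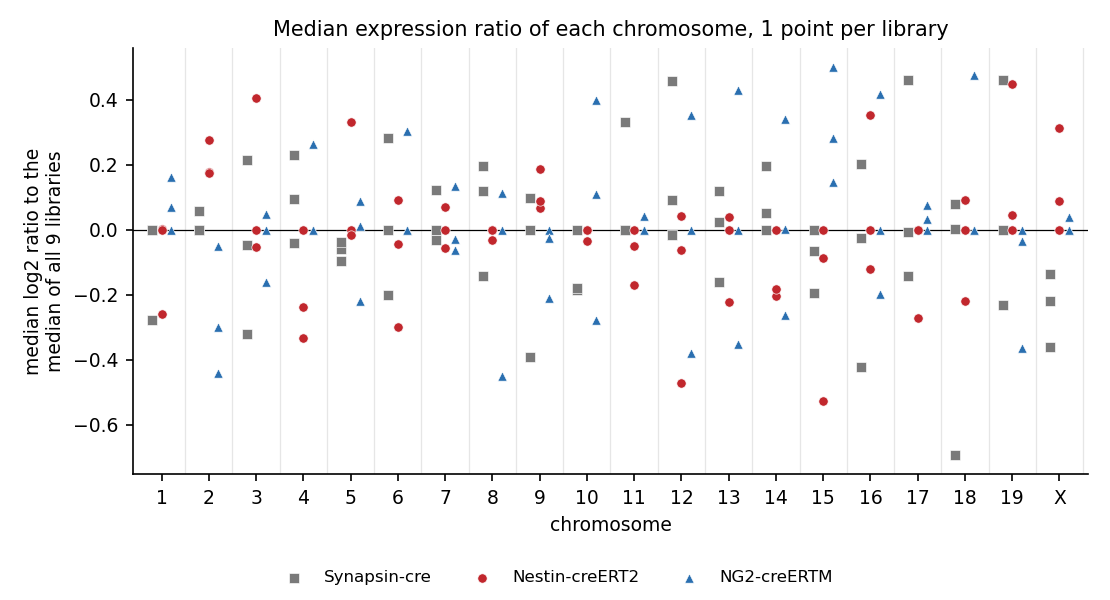
Median log2 ratio of the protein coding genes of each chromosome to the median of all 9 libraries, with 1 point per library. On chromosome 2 the 3 Nestin-creERT2 points (0.174 to 0.278) lie above the other 6 (at most 0.0592), and on the other 19 chromosomes the groups overlap or touch.

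Neighbours of the leading genes were compared within 1 Mb. Around Egfr 12 genes were measured, 1 lay above and the median log2 fold change was 1.31. In 9 of the 12 the highest of all 9 libraries was Nestin-creERT2 replicate 3, the library with the most Egfr. The 1 gene above was Cnrip1, a cannabinoid receptor interacting protein gene 133 kb away, at 130, 58.7 and 203 CPM against 28.7 to 53.8 CPM. Beside Foxd3, the noncoding gene Gm12688, 1.32 kb away, was at 0.147, 0.0831 and 0.0715 CPM against 2.58 to 37.5 CPM (log2 fold change -7.60, edgeR adjusted p = 0.0659), and none of the other 13 neighbours separated. Around Draxin 0 of 35 and around Agt 0 of 26 measured neighbours separated. Around Elfn1 7 of 35 lay above and 1 below, beside 2.41% and 2.5% of all genes. Among those above were Lfng and Grifin, 633 and 588 kb away. Grifin was near the floor, at 0.305 to 0.793 CPM against 0 to 0.105 CPM. The noncoding genes Gm42808 and Gm43703, also above, reached at most 1.41 and 0.693 CPM.

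Gene type, length and level of the separated genes were set beside those of all genes tested. Protein coding genes made up 85.2% of those above, 83.3% of those below and 84.8% of all tested. Median exon length was 3829, 4255 and 3946 bases and median mean log2 CPM 4.20, 3.56 and 4.21, in the same order. In 69 of the genes above (15.97%) none of the other 6 libraries reached 1 CPM, against 7.83% of all tested, and in 132 of those below (29.5%) no Nestin-creERT2 library did, against 13.6% of all tested. Genes low in 1 group could pass the filter through the other group, and the rule picks such genes. These shares therefore partly follow from the filter and the rule, and nothing further is read from them.

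Synapsin-cre replicate 1 was the nearest of the 6 libraries more often than any other, in 137 of the 432 genes above (31.7%) and in 134 of the 448 below (29.9%), against 49 to 86 for each of the other 5. Without it 1612 of 17615 genes lay above (9.15%) and 1067 below (6.06%), and edgeR's adjusted test called 506 higher (2.87%) and 161 lower (0.914%). Of these 667 calls 203 were among the 880 genes separated in all 9 libraries. That is 24.8% of the genes above and 21.4% of those below, beside 3.72% of all tested. Both sets come from the same contrast in mostly the same libraries, so nothing further is read from their overlap. The calls made with all 9 libraries changed when other libraries were left out: without Synapsin-cre replicate 3, Nestin-creERT2 replicate 2 or 3, or NG2-creERTM replicate 3 edgeR called none of them (910 to 1511 genes at an unadjusted p under 0.05 in those fits), and without Synapsin-cre replicate 2 only Draxin was. Fitted as 3 models, with the mean of the other two as the contrast, Foxd3, Draxin and Agt were called. With 1 library left out the log2 fold change of Draxin ranged from 4.14 to 4.95, the log2 fold change of Agt from 3.49 to 4.25, the log2 fold change of Elfn1 from 2.69 to 3.0 and the log2 fold change of Foxd3 from -8.46 (without Nestin-creERT2 replicate 2) to -7.44. The 28 plotted genes with the smallest p kept their sign in each of these 9 fits. They were chosen for groups that do not overlap, which leaves hardly any room for another sign, so nothing is read from that. All 28 were called without Synapsin-cre replicate 1, and 0 to 5 were called without any 1 of the other 8 libraries, against 4 with all 9.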

How the data were processed

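RNA of glioblastoma tissue was sequenced in 9 libraries, 3 per mouse model. The authors deposited read counts for each gene, which are whole numbers in the files. The submitters' processing notes name STAR, HTSeq and mm10. Tool versions and the annotation release are not given in the sources used here. Besides unstranded counts each file gives both strands, and the strand with most reads was used (the other held 3.25 to 3.64% of the reads in genes). Reads not counted in a gene made up 17.9 to 27.3% of each library and were left out.

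Of 46517 gene identifiers 46005 matched GENCODE vM21 on GRCm38, which gave symbols and coordinates. Genes were kept by edgeR's filterByExpr, TMM-normalised, and tested under R 4.3.3 in edgeR 4.0.16 by a quasi-likelihood fit of 2 groups, 3 libraries against 6, 2-sided, with Benjamini-Hochberg adjustment over 17947 genes and a threshold of 0.05. The standard error was taken as the size of the log2 fold change over the square root of F. Without Synapsin-cre replicate 1 the biological coefficient of variation went from 0.664 to 0.527. Groups were called separated where the CPM ranges did not overlap. Per-kilobase levels used exon length. The script was tested on simulated data.

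The genes, the 35 lists and the rules were chosen with earlier results of these data known. Named genes were the 14 smallest p in each direction among separated protein coding autosomal genes (not predicted, immunoglobulin or T cell receptor genes) whose log2 CPM (prior count 2) averaged 1 or more, up to 4 separated members of each list, and a panel of 12. Some genes are not reported here. Other genes are given as list members or examples, or where the text says so. The fit was repeated with upper quartile or relative log expression size factors, with genes of 1 CPM in 3 libraries, without a filter, and with unstranded counts, autosomal genes only, a fit of 3 models, limma 3.58.1 voom (plain and with sample quality weights), DESeq2 1.42.0 and leaving out each library. Those for chromosome 2 were chosen after seeing the data. Python 3.11.15 ran the scripts, with pandas 2.3.3, numpy 2.4.6 and matplotlib 3.10.9.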

Additional observations from a re-analysis of the deposited data

Results flagged for a closer look

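In 3 of the 64 named genes screened, 1 of the 6 Synapsin-cre and NG2-creERTM libraries lay far from the other 5 on the log2 CPM scale, by Dixon's test at the 95% level. Chance alone would give such a gap in about 1 in 20 groups, and 64 genes were screened. Erg, the endothelial transcription factor gene, reached 36.02 CPM in replicate 1 of NG2-creERTM, with the other 5 at 6.48 to 11.9 CPM. Syn1, the synapsin gene, was at 602 CPM in Synapsin-cre replicate 1 against 11.8 to 34.4 CPM. Nes, the nestin gene, was at 55.3 CPM in the same library against 294 to 688 CPM.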

How the results depend on the processing

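The count of genes called higher and lower in Nestin-creERT2 was 5 and 1. It was 10 and 3 with no filter, 2 and 1 in the fit of 3 models, 19 and 2 with limma voom, 495 and 184 with voom and sample quality weights, and 150 and 297 with DESeq2. Leaving out 1 library in turn gave 0 to 506 higher and 0 to 161 lower, the upper values being those without Synapsin-cre replicate 1. The 6 called genes stayed called under both other size factors, both filters, the unstranded counts, autosomal genes only, voom with weights and DESeq2, and limma voom lost 9230104L09Rik. The count of separated genes was 432 above and 448 below, 718 above with no filter, and 486 to 1612 above and 471 to 1077 below with 1 library left out. Without Nestin-creERT2 replicates 1, 2 and 3 in turn, where 2 libraries had to lie beyond the other 6, 940, 676 and 901 lay above. The median log2 fold change of all genes was -0.13 in edgeR and 0.00 in limma voom, and single genes moved by differing amounts.

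Among 1168 recomputed fold changes of named genes 997 kept their direction and their side of the threshold, 39 lost the call, 117 gained one and 15 changed sign, all in panel genes that were not called with all 9 libraries. The named genes outside the panel had separated groups, which left little room for a change of sign, so nothing is read from its absence there. The log2 fold change of Syn1 was -0.36 and turned to 0.47 in the fit of 3 models, 1.24 with limma voom, 1.71 with weights and -0.64 to 1.91 with 1 library left out, the upper value being that without Synapsin-cre replicate 1. The log2 fold change of Sox2 was -0.02 and turned to 0.042 with no filter, 0.0090 in the fit of 3 models, 0.12 with limma voom, and lay between -0.75 and 0.33 with 1 library left out. With 1 library left out the log2 fold change of Pdgfra ranged from -0.22 to 1.09, that of Cspg4 from -1.60 to 0.14 and that of Nes from -0.12 to 0.32. The chromosome 2 difference of 0.33 ranged from 0.28 to 0.39 with 1 library left out, and was 0.40 with the median of the other 6 libraries as reference, 0.32 over all tested genes and 0.30 over genes whose groups overlapped. No paired analysis was possible because the labels give no replicate numbers that the models share. The causes of these differences were not tested. Precision was limited by the comparison of 3 libraries against 6 and by the spread between libraries, and depth limited the genes with under 1 CPM in a group.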
